A study of Mus musculus with 6 samples.

Results

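Endothelial cells line the blood and lymph vessels, and the 35 genes described here are widely used to recognise them. A gene was taken into the comparison where a probe set of the array carried its symbol and no other, which held for 32 of the 35. Those 32 were read from 32 of the 23332 probe sets of the array. Flt4 and Ramp3 were matched only by probe sets that also carry other gene symbols, and Ecscr was not analysed here. Expression was measured in the olfactory epithelium, the odour-sensing lining of the nose, of C57Bl/6 mice 5 days after closure of a single nostril (unilateral naris occlusion). The groups were 3 arrays of the occluded side, where odour stimulation is lowered, and 3 arrays of the contralateral side of mice with an occluded nostril. The contralateral side is not untreated tissue, since its odour stimulation is raised, per the labels. The labels do not tie arrays to individual mice, and nothing in them says whether tissue was pooled or whether the lamina propria with its vessels was kept, so each p-value reflects only how much these 6 arrays vary.

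As background, vascular endothelium answers to secreted VEGF through the receptors Kdr, Flt1 and Flt4, and to angiopoietins through the Tie receptors. Its cells are held together by junction proteins such as VE-cadherin (Cdh5) and claudin-5 (Cldn5), and their identity rests on transcription factors of the ETS and SOX families. In the nose the olfactory epithelium itself is fed by capillaries of the lamina propria below it, which also carries lymphatic vessels.

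The arrays had median log2 values between 7.94 and 8.12, and occluded replicate 1 stood apart. Its correlations with the other arrays ran from 0.977 to 0.983 across probe sets, while the highest correlation in the set was 0.989. Omp, the marker protein of mature olfactory neurons, had a mean log2 value of 13.67 ± 0.07 on the occluded side and 13.56 ± 0.07 on the contralateral side (SD, n = 3 each). All 32 endothelial genes had a mean above 5.85, the median level of 22 genes not thought to be used in nasal tissue, which is only a rough floor because probe sets differ in how brightly they report. With tissue RNA, fewer endothelial cells and less RNA per endothelial cell cannot be told apart.

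No endothelial gene differed between the sides beyond the spread between arrays once all probe sets were taken into account. Of the 32 genes, 30 had a log2 difference (occluded minus contralateral) above 0, with a median of 0.21, against 64.8% of all probe sets above 0 and a median of 0.055. Limma with Benjamini-Hochberg adjustment called 0 of the 32 and 0% of all probe sets, and the adjusted p of the endothelial genes ran from 0.823 to 0.999. At an unadjusted p under 0.05, 2 endothelial genes were higher, Adgrl4 and Emcn, and 0 were lower, where the shares of all probe sets were 3.81% and 1.47%. Without occluded replicate 2 the count higher was 13 of 32, against 5.18% of all probe sets. It was 1 without occluded replicate 3 (4.24% of all probe sets) and 0 without occluded replicate 1 (3.54%). It was also 0 without contralateral replicate 1 (2.47% of all probe sets), contralateral replicate 2 (2.21%) or contralateral replicate 3 (4.70%). The number above 0 was 25 to 26 under 3 other scalings of the arrays, under which Robo4, Nos3 and Gpihbp1 lay below 0 in each, Icam2 in 2 of them, and Lyve1 and Clec14a in 1 each. Under those scalings the median of all probe sets was itself below 0, at -0.024, -0.0061 and -6e-04. No more probe sets then lay above 0 than below it. The 64.8% of all probe sets is therefore not the share to set beside these counts.

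Occluded replicate 1 was the highest of the 6 arrays for 29 of the 32 endothelial genes, against 46.0% of all probe sets. At the other end, contralateral replicate 2 was the lowest array for 20 of the 32, against 30.7% of all probe sets. The median endothelial gene lay 0.41 above the contralateral mean in occluded replicate 1, -0.0052 from it in occluded replicate 2 and 0.16 above it in occluded replicate 3. For all probe sets the same medians were 0.13, 0.0025 and 0.03. The SD among the occluded arrays was larger than among the contralateral arrays for 30 of the 32 genes, against 63.8% of all probe sets, with a median SD of 0.25 on the occluded side and 0.10 on the contralateral side.

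**Figure D1:**
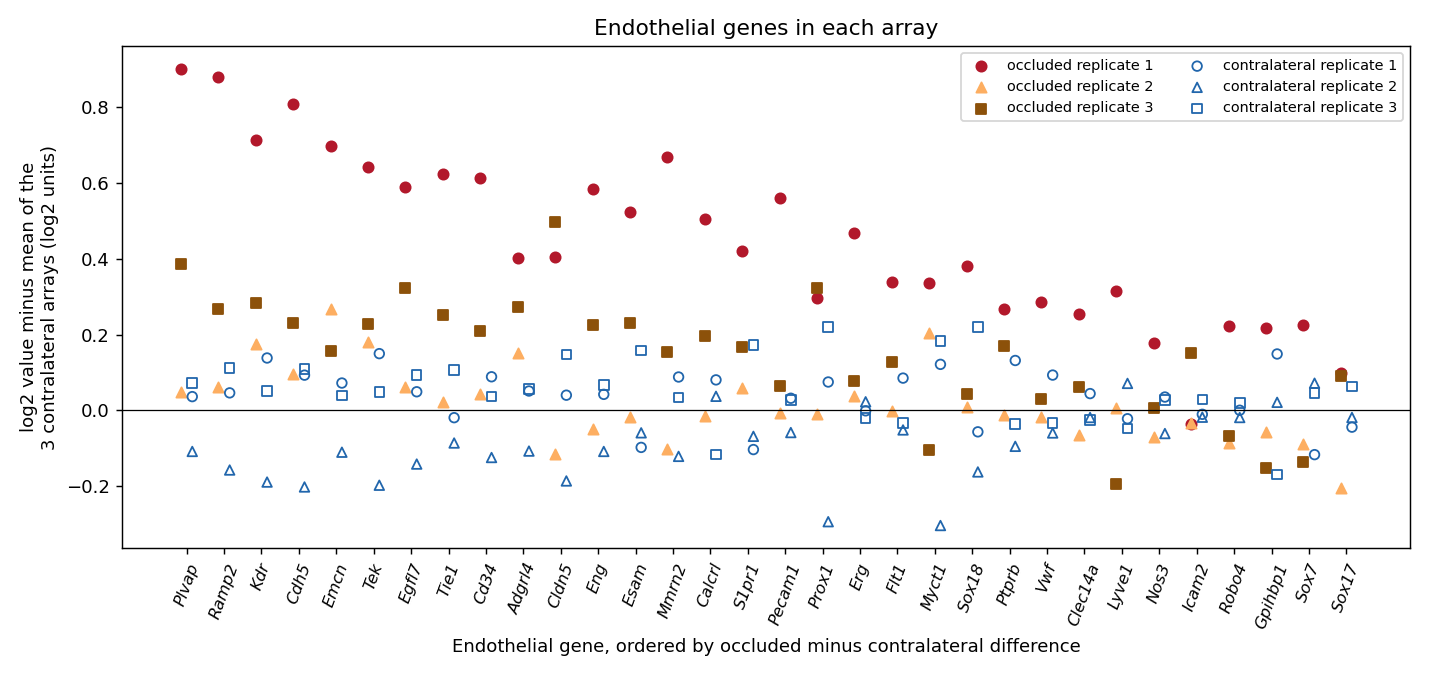
Log2 value of each endothelial gene in each array minus the mean of its 3 contralateral arrays (vertical axis, log2 units), with genes on the horizontal axis ordered by the difference between the sides; filled symbols are the occluded arrays and open symbols the contralateral arrays. Occluded replicate 1 (circles) is the highest array for 29 of the 32 genes, and occluded replicate 2 (triangles) lies near 0 for most.

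Leaving out occluded replicate 1 lowered the signed log2 difference of 31 of the 32 genes, all but Icam2. For Sox7, Sox17, Robo4, Lyve1 and Gpihbp1 the lower value was below 0 and larger in size than with all arrays. The median log2 difference was then 0.08, against 0.016 for all probe sets. With 5 arrays, 25 of the 32 genes lay above 0, against 55.3% of all probe sets. The genes then below 0 were Sox7, Gpihbp1, Lyve1, Robo4, Sox17, Nos3 and Clec14a. At an unadjusted p under 0.05, 0 endothelial genes were higher and 0 lower, where all probe sets gave 3.54% and 1.80%. After adjustment limma called 0 of the 32 and 0% of all probe sets. Leaving out contralateral replicate 2 as well, a choice made after the values had been seen, left 20 of the 32 above 0 with a median of 0.04. The median of all probe sets was then -0.003.

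**Figure D2:**
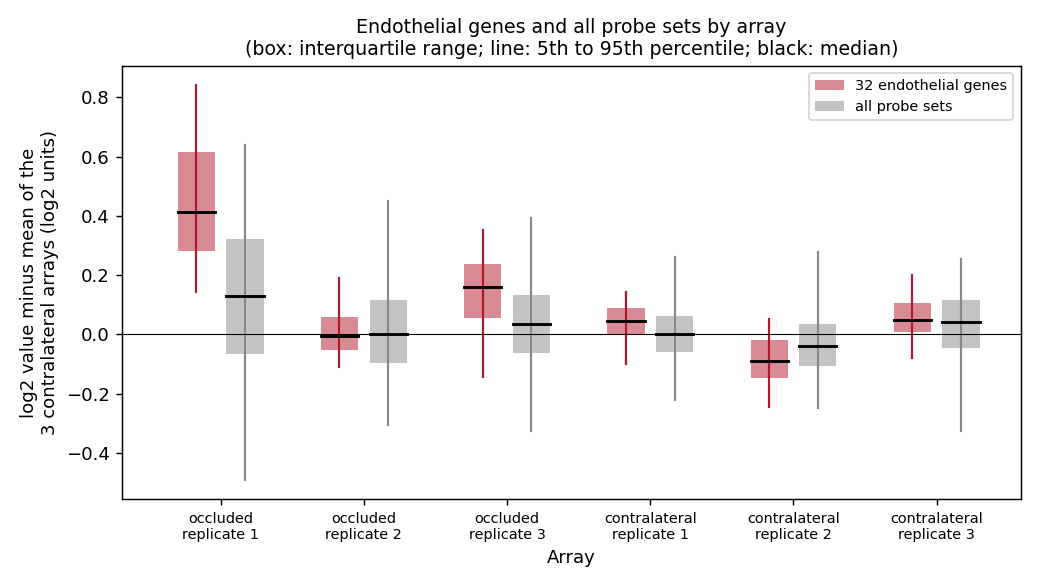
Distribution over genes of the log2 value minus the contralateral mean (vertical axis, log2 units) in each of the 6 arrays (horizontal axis), for the 32 endothelial genes in red and all 23332 probe sets in grey; boxes are interquartile ranges, lines run from the 5th to the 95th percentile and black bars are medians. The red median is 0.41 in occluded replicate 1, -0.0052 in occluded replicate 2 and 0.16 in occluded replicate 3.

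Separation of the sides was found for a small group. In 5 genes, Kdr, Tek, Emcn, Adgrl4 and Erg, every occluded array lay above every contralateral array, which is 5 of 32 where 7.49% of all probe sets did so. No endothelial gene had every occluded array below every contralateral array, where 3.24% of all probe sets did. Without occluded replicate 1 the 5 genes had to stay separated, since leaving out an array cannot undo a separation. No other endothelial gene then joined them, while the share with all occluded arrays on top rose to 11.2% of all probe sets. The count of genes with all occluded arrays on top can only stay or rise when an array is left out, and its size depended on the array. It was 22 of 32 without occluded replicate 2, against 20.1% of all probe sets, and 6 without occluded replicate 3, against 13.7%. It was 9 without contralateral replicate 1 (11.1% of all probe sets), 5 without contralateral replicate 2 (9.99%) and 13 without contralateral replicate 3 (21.5%).

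RefSeq promoters (GRCm38.p6) were at hand for 18 of the 35 genes, among them the 5 separated genes. Of those 5, 4 had 1 listed start each, while Erg had several and its stretches are not shown. The 250 bases before the start of the other 4 are shown because endothelial identity factors such as Erg bind ETS words. The capitals mark the ETS words AGGAAG and CCGGAA on either strand. The stretches lie at chr5:75978456-75978705 (- strand), chr4:94739039-94739288 (+ strand), chr3:137340828-137341077 (+ strand) and chr3:151437632-151437881 (+ strand), and each reads 5′ to 3′ along its gene.
Kdr: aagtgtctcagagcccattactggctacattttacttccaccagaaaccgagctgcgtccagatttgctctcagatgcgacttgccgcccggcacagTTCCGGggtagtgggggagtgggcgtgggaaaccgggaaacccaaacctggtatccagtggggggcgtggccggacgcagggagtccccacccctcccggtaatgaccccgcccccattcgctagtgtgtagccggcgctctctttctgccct
Tek: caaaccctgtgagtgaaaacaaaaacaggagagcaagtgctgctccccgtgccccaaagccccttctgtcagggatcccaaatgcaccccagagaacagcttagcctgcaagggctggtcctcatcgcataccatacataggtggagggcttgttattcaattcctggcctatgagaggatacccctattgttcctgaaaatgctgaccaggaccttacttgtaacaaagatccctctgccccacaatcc
Emcn: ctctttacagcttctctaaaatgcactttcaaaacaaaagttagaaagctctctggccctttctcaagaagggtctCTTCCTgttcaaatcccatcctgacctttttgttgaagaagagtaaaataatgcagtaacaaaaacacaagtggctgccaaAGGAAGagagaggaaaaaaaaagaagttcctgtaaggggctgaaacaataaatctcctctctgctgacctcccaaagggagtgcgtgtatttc
Adgrl4: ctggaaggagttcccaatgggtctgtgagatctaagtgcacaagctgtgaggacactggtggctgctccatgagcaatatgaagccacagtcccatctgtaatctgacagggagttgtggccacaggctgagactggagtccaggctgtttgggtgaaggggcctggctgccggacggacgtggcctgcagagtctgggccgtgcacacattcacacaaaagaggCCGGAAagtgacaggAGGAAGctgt

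AGGAAG was present before at least 1 start of 11 of the 18 endothelial genes with a promoter, against 32.3% of 27025 genes, and CCGGAA before 3 of the 18, against 13.6%. Emcn held AGGAAG at 2 places, Adgrl4 held each word once, Kdr held only CCGGAA and Tek neither. Erg, not shown, held AGGAAG before 1 of its starts and CCGGAA before none. The SOX word ACAAAG was present in 4 of the 18 (18.6% of all genes), ACAATG in 2 (12.2%) and the GATA word AGATAA in 2 (11.4%). These words were searched on both strands and can lie side by side, some genes have several starts, and a match is a description of the letters and not of binding.

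Among the VEGF receptors, Kdr, the main signalling receptor for VEGF-A, had log2 values of 8.85, 8.31 and 8.42 on the occluded side, against 8.27, 7.94 and 8.18 on the contralateral side. Its sides did not overlap, and the margin between occluded replicate 2 and contralateral replicate 1 was small. The log2 difference was 0.39 (SE 0.17), a 1.31-fold higher level with a 95% interval of -0.0049 to 0.79 on the log2 scale, and 0.23 (SE 0.12) without occluded replicate 1. Flt1, a high-affinity VEGF receptor that also acts as a decoy, had 7.41, 7.07 and 7.21 on the occluded side, against 7.16, 7.02 and 7.04 on the contralateral side. Its sides overlapped, with a log2 difference of 0.15 (SE 0.11), and 0.06 (SE 0.09) without occluded replicate 1.

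The Tie receptors bind or relay angiopoietins. Tek (Tie2), the angiopoietin receptor, had log2 values of 8.27, 7.81 and 7.85 on the occluded side, against 7.78, 7.43 and 7.68 on the contralateral side. The sides did not overlap, again by a small margin, and the log2 difference was 0.35 (SE 0.16), or 0.20 (SE 0.12) without occluded replicate 1. Tie1, its partner receptor, had 8.41, 7.81 and 8.04 on the occluded side, against 7.77, 7.70 and 7.89 on the contralateral side. For Tie1 occluded replicate 2 fell inside the contralateral range, and the log2 difference was 0.30 (SE 0.16), or 0.14 (SE 0.11) without occluded replicate 1. Ptprb, the endothelial phosphatase that dampens Tek, averaged 7.41 ± 0.14 on the occluded side and 7.26 ± 0.12 on the contralateral side (SD, n = 3 each), a log2 difference of 0.14 (SE 0.11), or 0.08 without occluded replicate 1.

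Calcrl and Ramp2 together form the receptor for adrenomedullin, a peptide that keeps vessel walls tight. Ramp2 had log2 values of 8.99, 8.17 and 8.37 on the occluded side, against 8.15, 7.95 and 8.22 on the contralateral side. Occluded replicate 2 lay inside the contralateral range, and the difference of 0.40 (SE 0.21) was 0.17 (SE 0.12) without occluded replicate 1. Calcrl had 8.26, 7.74 and 7.95 on the occluded side, against 7.84, 7.80 and 7.64 on the contralateral side. Occluded replicate 2 lay below 2 of the contralateral arrays, and the difference was 0.23 (SE 0.15), or 0.09 (SE 0.11) without occluded replicate 1. Adm, the adrenomedullin gene itself, had 6.39, 6.17 and 6.22 on the occluded side, against 4.29, 6.32 and 5.74 on the contralateral side. Its log2 difference of 0.81 (SE 0.47) was 0.23 without contralateral replicate 1, the low array. The mean of Adm over the 6 arrays was 5.854, at the rough floor of 5.852, and contralateral replicates 1 and 3 lay below that floor.

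Adgrl4 (Eltd1), an orphan adhesion receptor of angiogenic endothelium, had the smallest unadjusted p of the 32 genes. Its log2 values were 7.73, 7.48 and 7.60 on the occluded side, against 7.38, 7.22 and 7.38 on the contralateral side. All occluded arrays lay above all contralateral ones, with a log2 difference of 0.28 (SE 0.10; 95% interval 0.03 to 0.52), and 0.21 (SE 0.10) without occluded replicate 1. Its adjusted p from limma was 0.823. S1pr1, the sphingosine-1-phosphate receptor that stabilises vessels, averaged 9.95 ± 0.19 on the occluded side and 9.73 ± 0.15 on the contralateral side (SD, n = 3 each), a log2 difference of 0.22 (SE 0.13), or 0.11 without occluded replicate 1.

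All 14 measured junction and surface genes had a log2 difference above 0 with 6 arrays, at a median of 0.24, against 64.8% of all probe sets. Without occluded replicate 1 it was 11 of 14, at a median of 0.07, against 55.3% of all probe sets. Plvap, which builds the diaphragms of fenestrated capillaries, had the largest difference of the 32 endothelial genes with 6 arrays. Its log2 values were 8.64, 7.79 and 8.13 on the occluded side, against 7.77, 7.63 and 7.81 on the contralateral side. Occluded replicate 2 lay inside the contralateral range. The gap between occluded replicates 1 and 2 was wider than the log2 difference of 0.45 (SE 0.21), which was 0.22 (SE 0.13) without occluded replicate 1.

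Emcn (endomucin), a sialomucin of capillaries and veins, had log2 values of 8.52, 8.09 and 7.98 on the occluded side, against 7.89, 7.71 and 7.86 on the contralateral side. All occluded arrays lay above all contralateral ones, with a log2 difference of 0.37 (SE 0.15; 95% interval 0.0046 to 0.74), and 0.21 (SE 0.10) without occluded replicate 1. Cdh5 (VE-cadherin), the adherens junction protein of endothelium, had 9.14, 8.43 and 8.56 on the occluded side, against 8.42, 8.13 and 8.44 on the contralateral side. Occluded replicate 2 lay inside the contralateral range of Cdh5, and the difference was 0.38 (SE 0.20), or 0.16 (SE 0.13) without occluded replicate 1.

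Cd34, a sialomucin shared with blood progenitors and some stromal cells, had log2 values of 9.21, 8.64 and 8.80 on the occluded side, against 8.68, 8.47 and 8.63 on the contralateral side. The sides overlapped in occluded replicate 2, with a difference of 0.29 (SE 0.16), or 0.13 (SE 0.11) without occluded replicate 1. Pecam1 (CD31), an adhesion molecule of endothelium and of some blood cells, had 8.79, 8.22 and 8.29 on the occluded side, against 8.26, 8.17 and 8.25 on the contralateral side. Apart from occluded replicate 1 its arrays lay close together, and the difference of 0.21 (SE 0.16) was 0.03 (SE 0.08) without that array.

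Of the 14 junction and surface genes Emcn was the only 1 whose sides did not overlap, so the other 9 did not separate the sides either. Cldn5 (claudin-5), the main tight junction protein of tight capillaries, averaged 8.12 ± 0.33 on the occluded side and 7.86 ± 0.17 on the contralateral side (SD, n = 3 each), a log2 difference of 0.26 (SE 0.18). It was highest in occluded replicate 3, at 8.36, and not in occluded replicate 1, at 8.27. Eng (endoglin), a TGF-beta co-receptor, averaged 9.02 ± 0.32 on the occluded side and 8.76 ± 0.09 on the contralateral side, a difference of 0.25 (SE 0.17), or 0.09 without occluded replicate 1. Esam, a tight junction adhesion molecule, had a difference of 0.25 (SE 0.16) and Mmrn2 (multimerin 2), a matrix ligand of Clec14a, one of 0.24 (SE 0.20). Without occluded replicate 1 the difference was 0.11 for Esam and 0.03 (SE 0.12) for Mmrn2.

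The remaining surface genes had smaller log2 differences than those above. Myct1, a small endothelial membrane protein, was at 0.14 (SE 0.17) and Clec14a, a lectin-like receptor, at 0.08 (SE 0.11). Without occluded replicate 1 they were at 0.05 for Myct1 and -0.0020 for Clec14a. Robo4, the endothelial Roundabout receptor, was at 0.02 (SE 0.11) and Gpihbp1, which carries lipoprotein lipase into the capillary lumen, at 0.0018 (SE 0.14). Without occluded replicate 1 both lay below 0, at -0.08 (SE 0.07) for Robo4 and -0.11 (SE 0.12) for Gpihbp1. Robo4 was then the 1 endothelial gene whose occluded arrays all lay below the contralateral ones, where 7.83% of all probe sets did so. Icam2, a leukocyte adhesion molecule, averaged 6.78 ± 0.11 on the occluded side and 6.76 ± 0.03 on the contralateral side (SD, n = 3 each). It was the 1 endothelial gene for which occluded replicate 1 was the lowest array, at 6.72, and its log2 difference was 0.03 (SE 0.09).

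Among the secreted and enzyme genes, Egfl7, a matrix protein made by growing vessels, had log2 values of 8.98, 8.45 and 8.71 on the occluded side, against 8.44, 8.25 and 8.48 on the contralateral side. Occluded replicate 2 lay just under contralateral replicate 3, and the difference was 0.32 (SE 0.15), or 0.19 (SE 0.12) without occluded replicate 1. Vwf, the clotting factor carrier stored by endothelium, had 7.71, 7.40 and 7.45 on the occluded side, against 7.51, 7.36 and 7.39 on the contralateral side. Its difference was 0.10 (SE 0.11), and 0.0059 (SE 0.09) without occluded replicate 1. Nos3, the endothelial nitric oxide synthase, was at 0.04 (SE 0.10), or -0.03 (SE 0.08) without occluded replicate 1.

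The transcription factors differed from each other in how their arrays lay. Erg, an ETS factor that maintains endothelial identity, had log2 values of 8.29, 7.86 and 7.90 on the occluded side, against 7.82, 7.85 and 7.80 on the contralateral side. All occluded arrays were on top, but occluded replicates 2 and 3 only by hundredths of a log2 unit. The log2 difference was 0.19 (SE 0.13), and 0.06 (SE 0.07) without occluded replicate 1.

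The SOX factors of the F group, Sox7, Sox17 and Sox18, work in arterial and lymphatic development. Sox18 had log2 values of 8.07, 7.70 and 7.73 on the occluded side, against 7.63, 7.52 and 7.91 on the contralateral side, with a difference of 0.14 (SE 0.15), or 0.03 without occluded replicate 1. Sox17 had 7.37, 7.07 and 7.36 on the occluded side, against 7.23, 7.26 and 7.34 on the contralateral side, with a difference of -0.0049 (SE 0.11). Sox7 had 7.10, 6.78 and 6.74 on the occluded side, against 6.76, 6.94 and 6.92 on the contralateral side, with a difference of -0.0008 (SE 0.125). Sox7 and Sox17 were the 2 endothelial genes below 0 with all arrays, and their 95% intervals of -0.30 to 0.30 and -0.27 to 0.26 reach well past the median of the 32 genes. The sign of Sox17 turned without occluded replicate 2 (0.09) or contralateral replicate 3 (0.03). The sign of Sox7 turned without occluded replicate 2 (0.04), occluded replicate 3 (0.07), contralateral replicate 2 (0.03) or contralateral replicate 3 (0.02).

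The lymphatic genes that were measured were Prox1 and Lyve1. Prox1, the transcription factor that sets lymphatic identity and is also used by some neural and other cells, had log2 values of 6.92, 6.62 and 6.95 on the occluded side, against 6.70, 6.33 and 6.84 on the contralateral side. Its sides overlapped widely, with a difference of 0.20 (SE 0.16). Lyve1, a hyaluronan receptor of lymphatic vessels and of some macrophages, had 6.48, 6.17 and 5.97 on the occluded side, against 6.15, 6.24 and 6.12 on the contralateral side. Occluded replicate 1 was its highest array and occluded replicate 3 its lowest. The difference was 0.04 (SE 0.14), and -0.10 (SE 0.10) without occluded replicate 1. With the measured genes limited to 2, lymphatic and blood vessel genes could not be set apart.

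**Figure D3:**
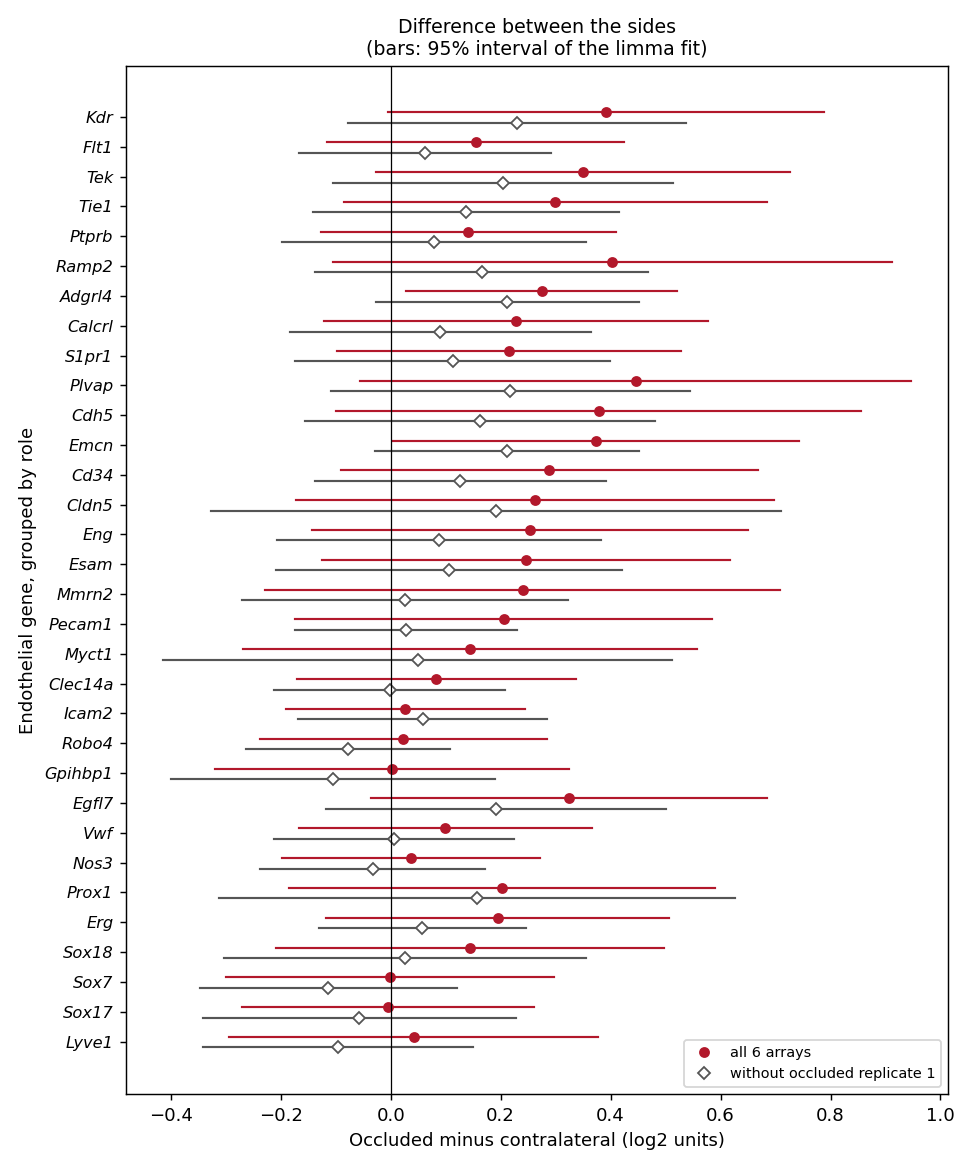
Log2 difference between the sides, occluded minus contralateral (horizontal axis, log2 units), for the 32 endothelial genes (vertical axis, grouped by role in the order of VEGF receptors, Tie receptors, G protein-coupled receptors and partners, surface, secreted, transcription factor and lymphatic genes); filled circles use all 6 arrays, open diamonds leave out occluded replicate 1, and bars are 95% intervals of the limma fit. The intervals of Adgrl4 and Emcn lie above 0 with 6 arrays, and 31 of the 32 diamonds lie left of their circles.

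Of 17 measured ligand genes, 16 lay above 0, against 64.8% of all probe sets. Their median log2 difference was 0.10, and limma called 0 after adjustment. Vegfa, the main ligand of Kdr, had log2 values of 9.08, 9.21 and 9.06 on the occluded side, against 9.11, 9.13 and 9.02 on the contralateral side. Its sides overlapped, with a difference of 0.03 (SE 0.09) that lay below 0 under all 3 other scalings. Pgf, a ligand of Flt1, was at 0.35 (SE 0.14) and Angpt2, the destabilising ligand of Tek, at 0.21 (SE 0.10), while Angpt1, its activating ligand, was at 0.04 (SE 0.16), below 0 under all 3 other scalings. Without occluded replicate 1 these were 0.21 for Pgf, 0.19 for Angpt2 and 0.19 for Angpt1. Of 24 measured genes of the Notch, TGF-beta and other vascular pathways, 23 lay above 0, where 64.8% of all probe sets did. Their median was 0.16, or 0.04 without occluded replicate 1, and 0 were called after adjustment. Foxc2, a factor of lymphatic and arterial endothelium, was at 0.50 (SE 0.20), the apelin receptor Aplnr at 0.32 (SE 0.16) and Ets1, an ETS factor, at 0.39 (SE 0.20). Without occluded replicate 1 they were at 0.27 for Foxc2, 0.19 for Aplnr and 0.17 for Ets1. Of 7 measured genes of inflamed endothelium, 4 lay above 0, near the share of all probe sets (64.8%). Their median of 0.03 lay below 0 under all 3 other scalings. The adhesion molecule Vcam1 was at 0.18 (SE 0.12) and the chemokine Ccl2 at -0.15 (SE 0.10), or 0.08 for Vcam1 and -0.21 for Ccl2 without occluded replicate 1.

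Most lists of markers of other cell types also averaged highest in occluded replicate 1. In that array the median of all probe sets lay 0.13 above the contralateral mean, and 46.0% of all probe sets were highest there. The mean log2 level of 32 endothelial genes was 8.09, 7.66 and 7.79 on the occluded side, against 7.68, 7.55 and 7.70 on the contralateral side. The 14 pericyte and smooth muscle genes averaged 8.96, 8.53 and 8.70 on the occluded side, against 8.64, 8.53 and 8.58 on the contralateral side. Of the 14, 12 had a log2 difference above 0, against 64.8% of all probe sets. Within that list Pdgfrb, the PDGF receptor of pericytes, was at 0.39 (SE 0.20), Abcc9, a potassium channel subunit of pericytes, at 0.30 (SE 0.12) and Acta2, smooth muscle actin, at 0.13 (SE 0.14). Rgs5, a G protein regulator abundant in pericytes, lay the other way, at -0.21 (SE 0.13), and its lowest array was occluded replicate 1. Without that array the differences were 0.19 for Pdgfrb, 0.19 for Abcc9, 0.0093 for Acta2 and -0.08 for Rgs5.

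Macrophage and connective tissue markers, and to a smaller extent those of neurons and sustentacular cells, were on average highest in occluded replicate 1. The median of all probe sets also lay above its contralateral level in that array, by 0.13. The 10 macrophage genes averaged 8.78, 8.18 and 8.21 on the occluded side, against 8.16, 7.88 and 8.14 on the contralateral side, and 10 of 10 had occluded replicate 1 as their highest array. Tyrobp, an immune adaptor, was at 0.62 (SE 0.20), or 0.40 without occluded replicate 1, the largest difference of the 10 in both settings. The median of the macrophage list was 0.34, or 0.12 without that array. The 12 connective tissue genes averaged 11.21, 10.95 and 10.92 on the occluded side, against 10.78, 10.74 and 10.86 on the contralateral side. All 12 had a difference above 0, against 64.8% of all probe sets, and they ran from 1e-04 to 0.44. Sparc, a matrix glycoprotein that endothelial cells also make, was at 0.41 (SE 0.14) and Pdgfra, a fibroblast receptor, at 0.36 (SE 0.16). Without occluded replicate 1 they were at 0.31 for Sparc and 0.20 for Pdgfra. The median of the connective tissue list was 0.25, or 0.10 without that array. The 9 olfactory neuron genes averaged 12.05, 11.91 and 11.94 on the occluded side, against 11.76, 11.75 and 11.87 on the contralateral side. Their median log2 difference was 0.17, or 0.15 without occluded replicate 1, with 8 of 9 above 0 in both settings. In 4 of the 9 every occluded array lay above every contralateral array, against 7.49% of all probe sets, and limma called 0 after adjustment. The 6 sustentacular genes averaged 11.42, 11.22 and 11.30 on the occluded side, against 11.28, 11.17 and 11.35 on the contralateral side. The part of other cell types in the endothelial values was not tested.

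The red cell genes Alas2 and Slc4a1 had another order of arrays than most endothelial genes. Alas2, the haem enzyme of red cell precursors, had log2 values of 9.13, 10.07 and 9.48 on the occluded side, against 8.50, 8.94 and 9.15 on the contralateral side. Slc4a1, the anion exchanger of the red cell membrane, had 7.95, 9.02 and 8.09 on the occluded side, against 7.54, 8.06 and 7.85 on the contralateral side. Both were highest in occluded replicate 2, where the median endothelial gene lay at the contralateral mean. The differences were 0.69 (SE 0.27) for Alas2 and 0.54 (SE 0.29) for Slc4a1, and 0.91 and 0.74 without occluded replicate 1. Of 12 listed red cell genes 3 were measured, and the third did not share that order. Car2, a carbonic anhydrase also used by other cells, had 10.82, 10.65 and 10.72 on the occluded side, against 10.63, 10.19 and 10.48 on the contralateral side. Like most endothelial genes it was highest in occluded replicate 1 and lowest in contralateral replicate 2, with a difference of 0.30 (SE 0.13).

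**Figure D4:**
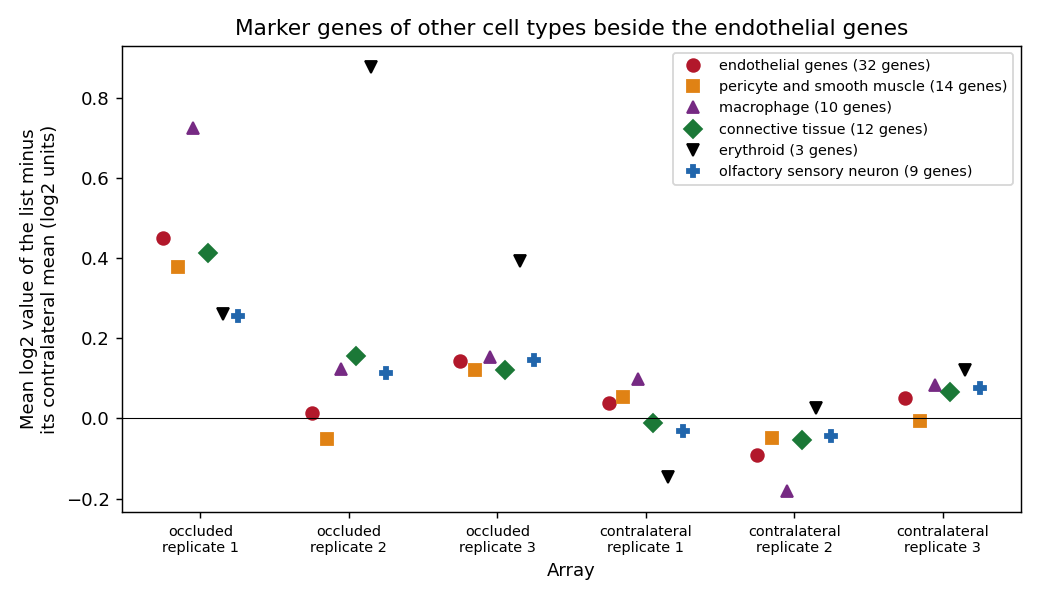
Mean log2 value of each marker list minus its mean over the 3 contralateral arrays (vertical axis, log2 units) in each of the 6 arrays (horizontal axis), with 1 symbol per list. The means of the endothelial, pericyte, macrophage, connective tissue and neuron lists are highest in occluded replicate 1, whereas the mean of the 3 red cell genes is highest in occluded replicate 2.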

How the data were processed

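Total RNA of olfactory epithelium was hybridised to Affymetrix exon arrays (Mouse Exon 1.0 ST). Per the labels, the deposited log2 values are RMA estimates that the authors took from Expression Console, summarised per core gene. The log2 scale was read from the range of the values, and the software version and genome build were not given in the sources used here. Since RMA aligns arrays, a shift shared by most genes can shrink.

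Gene names came from the platform's annotation: of 23332 probe sets, 14996 carried 1 symbol, 1019 several and 7317 none, and each measured endothelial gene had 1 probe set. Both sides entered a limma fit (version 3.58.1, R 4.3.3; lmFit and eBayes, two-sided) with p-values adjusted by Benjamini-Hochberg across the 23332 probe sets, a threshold of 0.05 and no replicate block, repeated without occluded replicate 1. The fit was tested on simulated data. The smallest p of an exact permutation test at this size would be 0.1, so none was run. Genes, lists and tests were chosen with earlier results of these data known, so lists are described by counts and medians without a test. All 32 measured endothelial genes are named. Of other lists, the rule takes the 3 genes with the smallest unadjusted p plus 9 landmark genes, of which not every one is printed. Values per array are given for the 10 endothelial genes with the smallest unadjusted p, for chosen family members and for any below 0. Erg, and the single arrays of Cldn5 and Icam2, were added after their values were seen.

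Alternatives were the replicate number as a block (fixed or random), each array left out in turn, 3 further scalings, 2 filters on dim probe sets, 1-symbol probe sets only, a trended robust eBayes, array weights and the mean of a gene's probe sets. Promoters are RefSeq's (GRCm38.p6).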

Additional observations from a re-analysis of the deposited data

How the results depend on the processing

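Adjusted p-values called 0 of the 32 endothelial genes under every alternative run, where the lowest, 0.0992, was that of Adgrl4 with array weights. A log2 difference above 0 was found for 22 of the 32 genes in all of 17 alternatives. Many of the 17 could not change a gene's difference, so this count overstates stability. They were the replicate blocks, the filters, 1-symbol probe sets only, the trended robust eBayes and the mean of a gene's probe sets. The settings chosen after seeing the data were not among the 17. The count at an unadjusted p under 0.05 was 2 with all arrays. It was 1 with arrays centred on their medians (2.19% of all probe sets) and 1 after quantile normalization (2.90%). It was 4 with 1-symbol probe sets only (4.95%) and 10 with array weights (14.9%). When 1 array was left out it was 0 to 13, where the shares ran from 2.21% to 5.18%. It was 0 without both occluded replicate 1 and contralateral replicate 2 (3.3%), and 0 without occluded replicate 1 on centred arrays (2.52%). This last pair was chosen after seeing the data. Over all probe sets 1 passed the adjusted threshold with 1-symbol probe sets, 62 with array weights, whose estimation did not converge, and 0 to 1 when 1 array was left out. Non-overlapping endothelial genes numbered 5 to 22 when 1 array was left out, a count that such a step can only keep or raise. The cause of that range was not tested. The endothelial median was 0.0432 without those 2 arrays and 0.0391 without occluded replicate 1 on centred arrays.

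Same-numbered arrays of the sides correlated in their deviations at 0.0095, 0.17 and -0.041, and nothing in the labels ties a number to a mouse, so the numbers were not taken as pairs. With the replicate block 7 endothelial genes were higher at an unadjusted p under 0.05, against 890 of 23332 probe sets (3.81%), and 0 passed after adjustment; only replicate 2 matched its own number best.

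Signs turned as follows, and the cause was not tested. With centred arrays the log2 differences were -0.024 for the median of all probe sets, -0.0201 and -0.0536 for the sustentacular and activated endothelium medians, -0.0561 for Robo4, -0.0374 for Lyve1, -0.0418 for Nos3, -0.052 for Icam2, -0.0772 for Gpihbp1, -0.0477 for Vegfa, -0.0439 for Angpt1 and -0.0078 for Icam1. After quantile normalization they were -0.0061, -0.0169 and -0.0179 for those medians in that order, -0.0184 for Robo4, -0.0204 for Nos3, -0.0038 for Icam2, -0.0511 for Gpihbp1, -0.0613 for Vegfa, -0.023 for Angpt1 and -0.0022 for Icam1. Under cyclic loess they were -6e-04 for all probe sets, -0.0169 for activated endothelium, -0.017 for Robo4, -0.0191 for Nos3, -0.006 for Clec14a, -0.0422 for Gpihbp1, -0.0586 for Vegfa, -0.0439 for Angpt1 and -0.0059 for Icam1. With array weights they were -0.0598 for Robo4, 0.0911 for Sox17, -0.0067 for Vwf, -0.1606 for Lyve1, -0.0087 for Nos3, -0.1096 for Myct1, -0.2074 for Gpihbp1 and -0.0287 for Vegfa. The median of all probe sets was -0.003 without both occluded replicate 1 and contralateral replicate 2. It was -0.0284 without occluded replicate 1 on centred arrays. Leaving out 1 array gave -0.0773 to 0.0779 for Robo4, -0.0571 to 0.0946 for Sox17, -0.1135 to 0.0675 for Sox7, -0.0952 to 0.1602 for Lyve1, -0.0327 to 0.0909 for Nos3, -0.0352 to 0.0586 for Icam2, -0.002 to 0.1574 for Clec14a, -0.0075 to 0.2698 for Myct1, -0.1056 to 0.0791 for Gpihbp1, -0.0143 to 0.0595 for Vegfa, -0.1094 to 0.1876 for Angpt1, -0.011 to 0.136 for the sustentacular median and -0.0332 to 0.0779 for the activated endothelium median.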
